A study of Mus musculus with 5 samples.

Results

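Genes that restrain the cell cycle or mark senescence, 10 in all (Cdkn1a, Cdkn1b, Cdkn1c, Cdkn2a, Cdkn2b, Cdkn2c, Trp53, Mdm2, Rb1 and Lmnb1) were examined for mJunB binding and for H3K27ac in mouse muscle stem cells (MuSCs). They were 10 of the 21938 protein-coding genes of the GENCODE M21 annotation of mm10 (GRCm38) on the autosomes, X and Y. The choice was by name, with earlier results of these data known. Shares set beside those of all genes therefore describe a chosen set. A peak belonged to a gene when its nearest edge lay within 50 kb of any annotated transcription start site (TSS) of that gene, and it was called a promoter peak within 3 kb and a distal peak beyond. By this rule, 11, 5 and 7 peaks of the 3 young mJunB libraries, 13 peaks of the aged mJunB library and 38 peaks of the H3K27ac library lay near the 10 genes. Peaks of the 4 mJunB libraries that overlapped or touched were merged into regions, which gave 19 of 19101 mJunB regions near these genes.

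The libraries were made by CUT&RUN-seq, in which an antibody bound to chromatin in permeabilised cells guides a nuclease that releases the nearby DNA for sequencing. MuSCs are the resident stem cells of muscle, here freshly isolated from muscle, and a JunB antibody was used on 3 libraries labelled young and 1 labelled aged, while an H3K27ac antibody was used on 1 library. The study's methods sort MuSCs of young and aged mice as VCAM1-positive cells without CD31, CD45 or Sca1, and those of its control and JunB knockout strains by GFP. The peak names of young replicate 1 carry the word gfp, with no meaning given. The methods name aged C57BL/6 mice, but tie no strain, sex, age in months or pooling of animals to these libraries. The H3K27ac library has no age group, and the methods call its data both CUT&RUN-seq of the authors and data of an epigenome mapping project, a doubt that touches each overlap with H3K27ac below. The design text of the series names mice treated with DMSO or MVC, whereas the sample labels give only young and aged, and the labels were followed. The headings of the study's own peak sheet reverse these ages: every row held under its young heading was identical to a peak of the library labelled aged, and under its aged heading none was, while a minority matched young replicates 1 and 3. The aged peak total in the study's text is, however, the length of the list labelled aged. "Young" and "aged" below name libraries by their labels, and differences between them are differences between lists that were not tested as effects of age.

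Cyclin-dependent kinases drive a cell from the G1 phase into DNA replication. The CIP/KIP inhibitors Cdkn1a (p21), Cdkn1b (p27) and Cdkn1c (p57) bind cyclin-kinase complexes, and the INK4 inhibitors Cdkn2a (p16, which also encodes p19ARF in another frame), Cdkn2b (p15) and Cdkn2c (p18) bind the kinases Cdk4 and Cdk6, so that Rb1 stays unphosphorylated and holds E2F factors in check. Trp53 (p53) activates Cdkn1a after DNA damage and is itself degraded through Mdm2, while loss of lamin B1 (Lmnb1) from the nuclear envelope is a common marker of senescent cells. In resting MuSCs several of these inhibitors maintain quiescence, and p16 has been tied to the senescence of old MuSCs. JunB is a subunit of AP-1, a dimeric factor that binds the heptamer TGACTCA, read as TGAGTCA on the other strand, and H3K27ac is an acetylation of histone H3 that marks active enhancers and promoters.

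The sequences below are of the 2 regions in all 4 mJunB libraries and the 2 in all 3 young libraries but not the aged one. The last is the single mJunB peak that spanned a TSS of any of the genes. Each is given on the plus strand of mm10, and covers the stretch that the region's peaks shared, extended to or trimmed at 300 bases, or the whole peak where it was 245 bases wide. Capitals mark the AP-1 heptamer in either orientation.
Cdkn1a intron, all 4 libraries, chr17:29095223-29095522: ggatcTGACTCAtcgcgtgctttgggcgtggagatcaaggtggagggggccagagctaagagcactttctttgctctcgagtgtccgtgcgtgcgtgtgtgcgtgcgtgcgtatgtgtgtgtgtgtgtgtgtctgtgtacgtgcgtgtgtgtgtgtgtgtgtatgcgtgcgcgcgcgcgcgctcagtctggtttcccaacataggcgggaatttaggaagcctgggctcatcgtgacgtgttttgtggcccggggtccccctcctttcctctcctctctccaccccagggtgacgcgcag
Cdkn2c upstream region at Faf1, all 4 libraries, chr4:109676278-109676577: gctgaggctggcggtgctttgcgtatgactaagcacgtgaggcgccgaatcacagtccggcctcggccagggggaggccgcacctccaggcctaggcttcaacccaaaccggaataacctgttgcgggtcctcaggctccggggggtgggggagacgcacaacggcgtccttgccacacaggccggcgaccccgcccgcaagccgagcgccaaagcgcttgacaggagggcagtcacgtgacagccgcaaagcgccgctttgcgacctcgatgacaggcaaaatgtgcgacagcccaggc
Mdm2 distal region within Cpm, 3 young libraries, chr10:117659620-117659919: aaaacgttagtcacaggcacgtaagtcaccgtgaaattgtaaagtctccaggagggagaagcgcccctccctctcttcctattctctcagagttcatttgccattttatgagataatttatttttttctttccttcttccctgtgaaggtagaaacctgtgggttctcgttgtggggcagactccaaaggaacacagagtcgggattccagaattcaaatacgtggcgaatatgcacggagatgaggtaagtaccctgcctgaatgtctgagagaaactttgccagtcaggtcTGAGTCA
Rb1 intron, 3 young libraries, chr14:73313639-73313938: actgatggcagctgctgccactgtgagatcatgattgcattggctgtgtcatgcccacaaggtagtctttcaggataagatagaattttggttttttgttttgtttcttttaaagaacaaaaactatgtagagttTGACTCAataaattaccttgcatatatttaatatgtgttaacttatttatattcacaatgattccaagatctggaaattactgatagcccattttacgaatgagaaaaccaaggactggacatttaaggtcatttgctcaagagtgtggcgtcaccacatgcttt
Mdm2 TSS, aged library, chr10:117710288-117710532: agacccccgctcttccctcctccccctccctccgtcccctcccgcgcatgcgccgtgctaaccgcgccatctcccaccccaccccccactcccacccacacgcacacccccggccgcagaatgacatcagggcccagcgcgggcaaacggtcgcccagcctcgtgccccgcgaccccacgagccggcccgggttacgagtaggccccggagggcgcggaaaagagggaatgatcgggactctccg
The heptamer was present in 3 of these 5 sequences and absent from the Cdkn2c and Mdm2 TSS windows. It lay 109 bp from the nearest summit in the Cdkn1a intron, 150 bp in the Mdm2 distal region and 1 bp in the Rb1 intron. Sequence masked as repeat in the reference genome made up 45.7% of the printed Cdkn1a stretch.

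Values of the young libraries are given below in the order of replicates 1, 2 and 3. Their mJunB lists held 9534, 4884 and 3863 peaks, the aged list held 14123 and the H3K27ac list 39865. These lists had not passed one threshold, since young replicate 1 and the aged library reached down to a −log10 p of 3.01 but young replicates 2 and 3 only to 5.33 and 5.22. Read counts are not part of the lists, the sequencing depth at a peak cannot be read from them, and fold enrichment (the summit's pileup over the local background of the same library) has no scale common to the libraries. With 1 aged library no test between ages could be made, and the values below are a description with the spread of the 3 young libraries. Of the MuSC markers Pax7, Myf5, Vcam1, Cdh15 and Calcr, the H3K27ac list had promoter peaks at 2 (Vcam1 and Cdh15), at 1 of 2 endothelial markers (Pecam1), and at 0 of 2 fibro-adipogenic and 0 of 2 leukocyte markers, so the defining marker Pax7 was without one. Of all protein-coding genes 49.8% had one, so these few markers cannot settle the cell type of that list.

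Cdkn1a was the gene of the 10 with an mJunB promoter peak in the young libraries. It was 1 of 10 genes in young replicate 1, where 11.0% of all protein-coding genes had a promoter peak, 1 of 10 in young replicate 2 (7.74% of all genes) and 1 of 10 in young replicate 3 (5.91% of all genes). In the aged library 3 of the 10 genes (Cdkn1a, Mdm2 and Rb1) had one, beside 23.9% of all genes. The count in each library was thus within 1 gene of what the share of all genes would give for 10 genes. Cdkn1a alone had a promoter peak in all 4 libraries, which 4.36% of all genes had, and Mdm2 and Rb1 had one in the aged but no young library, as 13.1% of all genes did.

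Within 50 kb, mJunB peaks lay near 7, 5 and 6 of the 10 genes in the young libraries, where the shares of all genes were 40.4%, 27.5% and 23.4%. In the aged library 9 of the 10 genes had a peak in the window, beside 58.4% of all genes. The genes were thus above the background share in each of the 4 libraries, by 2 to 4 genes of 10, when every annotated TSS counted. TSSs inside a gene widen its window. With only the 5′ end of each gene, 15 of the 19 regions remained, and no share of all genes was computed for that setting. The regions that dropped out had their strongest summit 58079 (Cdkn2a), 52322 (Trp53), 50997 (Mdm2) and 51061 bp (Lmnb1) from the 5′ end. A peak in the window in all 4 libraries was found for 4 genes (Cdkn1a, Cdkn2c, Mdm2 and Rb1), beside 19.0% of all genes, although for Mdm2 and Rb1 the aged peak was not the young one. Cdkn1b and Cdkn2a had a peak in the aged library alone, and 20.6% of all genes did. Cdkn2b was the gene without an mJunB peak in any library.

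**Figure D1:**
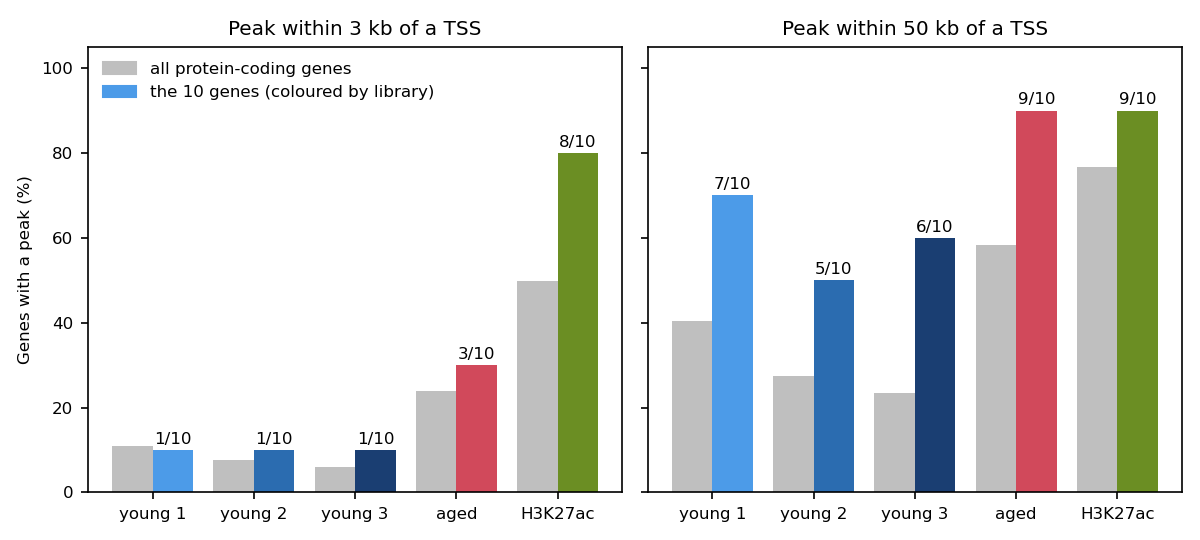
Share of genes (%) with a peak within 3 kb (left) or 50 kb (right) of a TSS in each library, for all protein-coding genes (grey) and for the 10 genes (coloured, with the count above the bar). Within 3 kb of a TSS the mJunB bars of the 10 genes stand near the grey ones, at 1, 1, 1 and 3 of 10, while within 50 kb they stand above them in all 4 mJunB libraries.

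The number of mJunB peaks near the 10 genes was 7.67 ± 3.06 (SD, n = 3) in the young libraries, against 13 in the aged one. These were 0.115%, 0.102% and 0.181% of all peaks of the young libraries and 0.092% of the aged peaks, so the aged library had the most peaks near the genes and the lowest share. When each list was held to a −log10 q of at least 2, the young counts stayed at 11, 5 and 7 and the aged count became 8. The aged count then fell within the range of the young ones.

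Among the CIP/KIP inhibitors, Cdkn1a (chr17:29090976-29100727, plus strand) held the strongest mJunB peak near any of the 10 genes in each library. It lay within a Cdkn1a intron at chr17:29094946-29095586, and its fold enrichment was 17.3, 14.8 and 13.0 in the young libraries, against 11.8 in the aged one. Its −log10 p was 74.0, 52.7 and 32.0 in the young lists, against 37.8 in the aged list. The peak ranked 217th of 9534, 365th of 4884 and 461st of 3863 peaks in the young lists and 136th of 14123 in the aged list. It thus stood in the upper part of all 4 lists, whose lengths and thresholds differ, so that the ranks were not compared between libraries. The 4 summits lay within 72 bp of each other. The region held 2 copies of the AP-1 heptamer, the nearer 109 bp from a summit. Neither was within the 301 bp centred on the young replicate 1 summit. The peak counted as a promoter peak through the TSS of the transcript Cdkn1a-205 at position 29093781, which was 1165 bp away, whereas the young replicate 1 summit lay 4436 bp downstream of the gene's 5′ end. The nearest TSS of any gene was that of AC167363.2, at 485 bp.

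**Figure D2:**
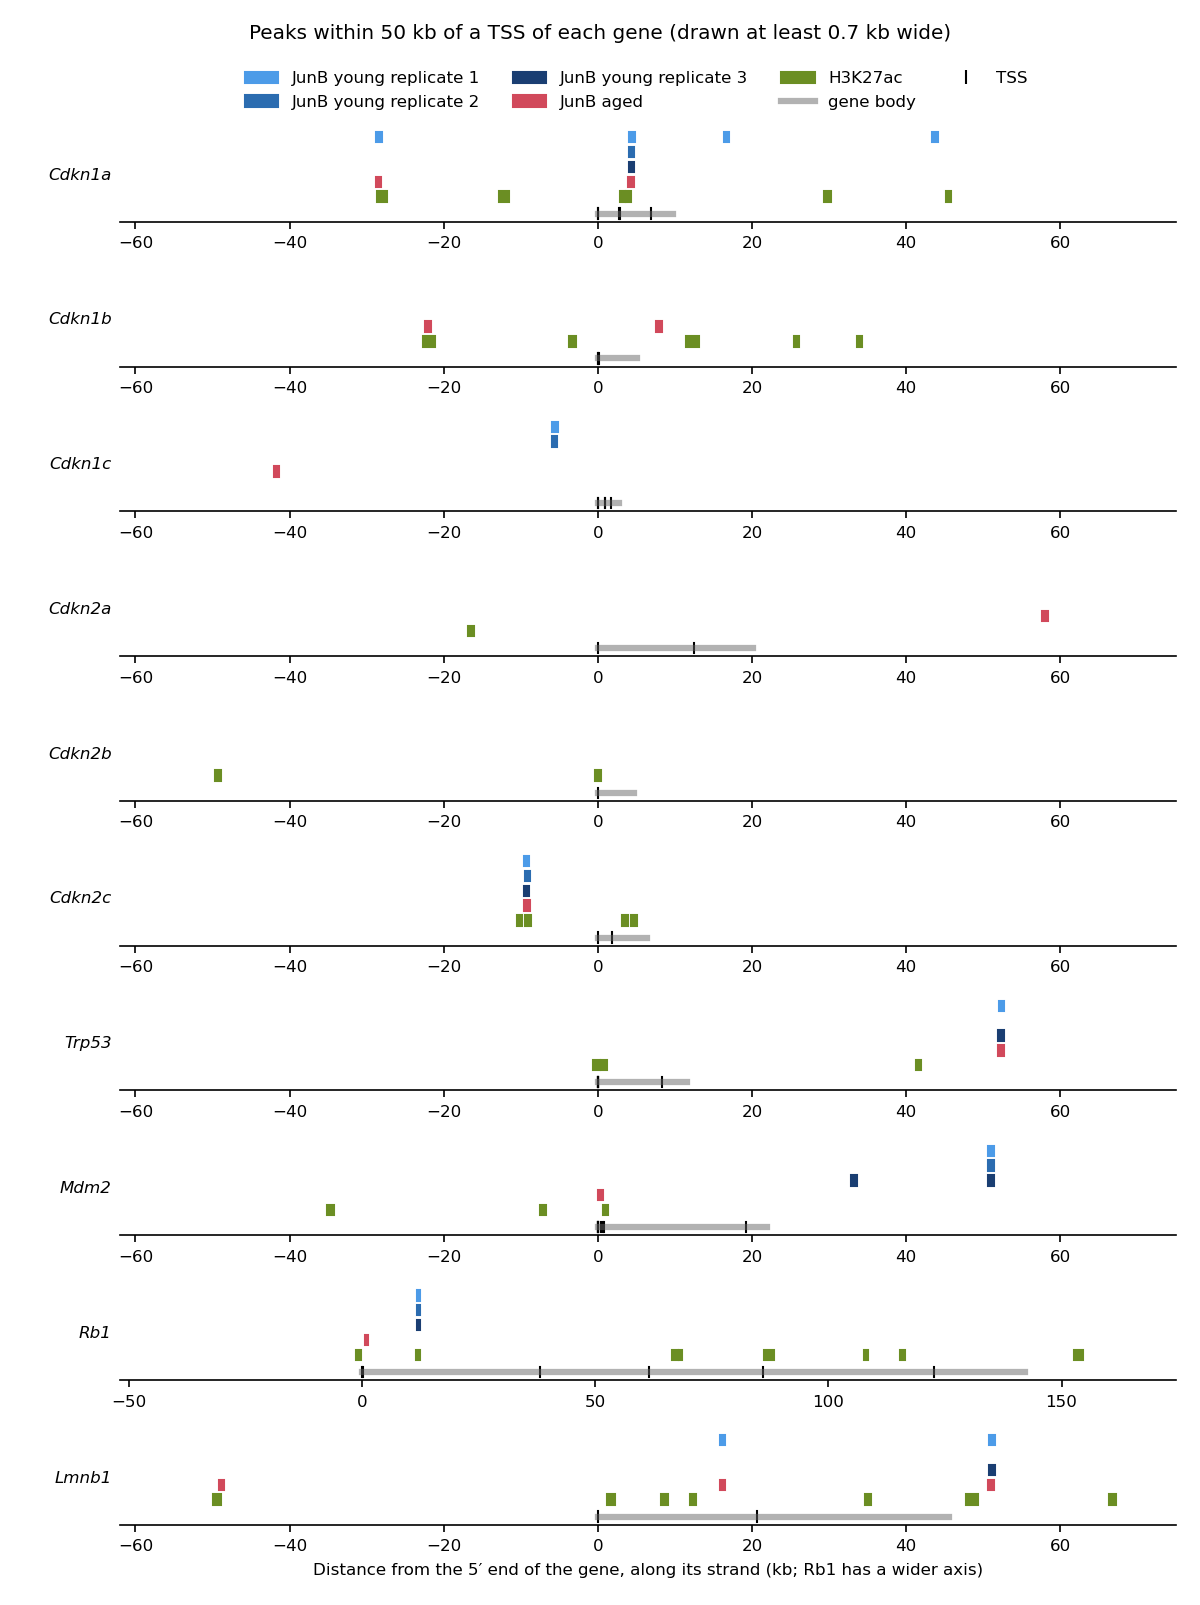
Position of every mJunB peak and H3K27ac peak within 50 kb of a TSS, in kb from the 5′ end of each gene along its strand, with 1 row for each library, the gene body in grey and TSSs as black ticks. The Cdkn1a intron and the stretch upstream of Cdkn2c carry a mark in all 4 mJunB rows, and at Mdm2 and Rb1 the aged mark sits at the start of the gene while the young marks sit further downstream.

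Cdkn1a had 3 further mJunB regions in its window, all distal. One of these, chr17:29062341-29062837, lay 28139 bp upstream within an intron of Trp53cor1, which encodes the p53-induced noncoding RNA lincRNA-p21, and had folds of 5.11 (young replicate 1) and 5.66 (aged). It overlapped an H3K27ac peak and held 2 copies of the AP-1 heptamer, one of them 1 bp from a summit. The other distal regions, chr17:29107335-29107925 (fold 3.78) and chr17:29134466-29134959 (fold 4.15), were found in young replicate 1 alone, and the latter lay 97 bp from the TSS of Rab44. H3K27ac peaks numbered 6 in the Cdkn1a window, and 2 of these were within 3 kb of a TSS. The one at chr17:29094643-29095197 (fold 3.15) overlapped the intronic mJunB region by reaching the peaks of the aged library, young replicate 1 and, by 1 bp, young replicate 2, but not that of young replicate 3. The mJunB summits of that region lay at 29095340 to 29095412, beyond the end of this H3K27ac peak.

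Cdkn1b (chr6:134920401-134925513) had no mJunB peak in any young library and 2 distal ones in the aged library. The first, chr6:134898003-134898692 (fold 3.61), covered the TSS of the neighbouring receptor gene Gpr19 and overlapped an H3K27ac peak. The second, chr6:134928217-134928461 (fold 5.0), lay 7704 bp from a Cdkn1b TSS and 631 bp from that of the noncoding gene Lockd. Neither aged peak was stronger than the median peak of its library, as 11.8% and 49.4% of aged peaks were weaker by −log10 p. Of 5 H3K27ac peaks in the window the nearest to a Cdkn1b TSS, chr6:134916709-134917497 (fold 4.30), was 2904 bp away, and it held no mJunB peak.

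Cdkn1c (chr7:143458339-143461050), an imprinted gene, was the single gene of the 10 with no H3K27ac peak within 50 kb. A region 5441 bp upstream of it, chr7:143466491-143466795, carried mJunB peaks in young replicates 1 and 2, with folds of 4.98 and 6.39, and none in young replicate 3 or the aged library. It contained 1 AP-1 heptamer, 102 bp from the nearer summit, and Cdkn1c had the nearest TSS. The aged library had instead 1 peak of fold 3.63 at chr7:143502618-143502862, which was 77 bp from the TSS of Phlda2, another imprinted gene.

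At the INK4 genes Cdkn2a, Cdkn2b and Cdkn2c, mJunB peaks near the start of the gene were absent from all 4 lists. Cdkn2a (chr4:89274471-89294653) and Cdkn2b (chr4:89306299-89311039) are neighbours whose windows overlap. For Cdkn2a the only mJunB peak was 1 aged peak at chr4:89236510-89236754, within an intron of Gm12606 and 45438 bp from the nearest Cdkn2a TSS. It had a fold of 3.11, a −log10 p of 3.40 and a −log10 q of 0.771, and 0.644% of the aged peaks were weaker, which placed it at the floor of that list. Cdkn2b had none in its window. The 2 genes shared an H3K27ac peak at chr4:89310664-89311459 (fold 4.67), which spanned the Cdkn2b TSS and was 16011 bp from the nearest TSS of Cdkn2a, where no H3K27ac promoter peak was listed.

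Cdkn2c (chr4:109660876-109667189, minus strand) had 1 mJunB region, chr4:109676098-109676615, present in all 4 libraries. Its fold was 12.6, 9.25 and 10.1 in the young libraries, against 8.80 in the aged one. The −log10 p was 29.4, 19.6, 17.6 and 16.8 in the same order, and the 4 summits lay within 78 bp. In its own list the peak ranked 997th, 1763rd and 1293rd in the young libraries and 1240th in the aged one, which places it in the upper part of each. The region was 8909 bp upstream of Cdkn2c and covered a TSS of Faf1, which encodes a Fas-associated protein, so that a peak near Cdkn2c was at the promoter of another gene. It overlapped an H3K27ac peak of fold 5.67 and held no AP-1 heptamer but a GC box (GGGCGG, the letters bound by Sp factors). The 2 H3K27ac promoter peaks of Cdkn2c were weak, with folds of 2.32 and 1.76, and lay 2705 and 1514 bp from a TSS inside the gene.

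In the p53 axis, Trp53 (chr11:69580359-69591873) had no mJunB promoter peak although 2 H3K27ac peaks (folds 3.72 and 3.26) lay at its start. The single mJunB region in its window, chr11:69632450-69632888, was 43755 bp from a Trp53 TSS inside the gene. The young replicate 1 summit lay 52322 bp from the gene's 5′ end. The region was 102 bp from the TSS of Fxr2, an RNA-binding protein gene. Its fold was 10.6 and 6.54 in young replicates 1 and 3, against 8.36 in the aged list, with no peak in young replicate 2. These folds have no common scale and were not compared between libraries. The region overlapped no H3K27ac peak.

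Mdm2 (chr10:117688875-117710758, minus strand), whose product is the ubiquitin ligase of p53, had different mJunB regions in young and aged libraries. In the aged library the peak chr10:117710288-117710532 spanned a TSS at position 117710292, with a fold of 4.15, a −log10 p of 5.22 and a −log10 q of 2.17, and 19.6% of the aged peaks were weaker. It was 245 bp wide, the lowest width in that list. The H3K27ac promoter peak of Mdm2, chr10:117709411-117710112 (fold 3.42), did not overlap it. In the young libraries the peaks lay downstream, within introns of the neighbouring carboxypeptidase gene Cpm. The region chr10:117659586-117659925 was found in all 3, with folds of 10.5, 13.6 and 12.7, and had no aged peak. It was 31595 bp from the nearest Mdm2 TSS, which is inside the gene. The young replicate 2 summit lay 50997 bp from the gene's 5′ end. The summits of the region lay within 37 bp of each other. Among the peaks of their own libraries 85.6%, 84.2% and 79.8% were weaker, so all 3 stood in the upper part. It overlapped no H3K27ac peak and held 1 heptamer, 150 bp from the nearest summit. A further region, chr10:117677399-117677651 (fold 6.95), was found in young replicate 3 alone.

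Rb1 (chr14:73183673-73325822, minus strand), the pocket protein that G1 kinases phosphorylate, also had different mJunB regions in young and aged libraries. An aged peak at chr14:73324766-73325010 lay in the gene 631 bp from a TSS, with a fold of 4.67, a −log10 p of 6.21 and a −log10 q of 3.02, and 35.6% of the aged peaks were weaker. It too had the lowest width of that list, 245 bp. The region chr14:73313633-73313950, in an Rb1 intron 11691 bp from the TSS, was found in all 3 young libraries with folds of 11.6, 10.1 and 10.8 and not in the aged one. The 3 summits lay within 58 bp and an AP-1 heptamer was 1 bp from one of them. This was the closest match of motif and summit among the regions shared by 3 or more libraries. The region overlapped an H3K27ac peak of fold 2.75, and 2 of the 8 H3K27ac peaks in the Rb1 window were promoter peaks, the stronger by fold, chr14:73326133-73327262 (fold 4.81), being 311 bp upstream of the gene.

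Lmnb1 (chr18:56707813-56753424), the lamin B1 gene, had no mJunB promoter peak and 3 distal regions. The region at chr18:56758481-56759356 lay beyond the gene's end, 30040 bp from the nearest TSS, which is inside the gene. The young replicate 1 summit was 51061 bp from the gene's 5′ end. The folds of the region were 6.40 and 5.68 in young replicates 1 and 3, against 4.58 in the aged list. An intronic region at chr18:56723700-56724209 had folds of 4.15 (young replicate 1) and 3.85 (aged) and was 4232 bp from the same inner TSS. The third, chr18:56658853-56659097 (fold 3.63), was in the aged library alone and was the one of the 3 that overlapped an H3K27ac peak. Young replicate 2 had no peak in the window, and the gene had 7 H3K27ac peaks, the promoter one being 1192 bp from a TSS (fold 4.07).

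**Figure D3:**
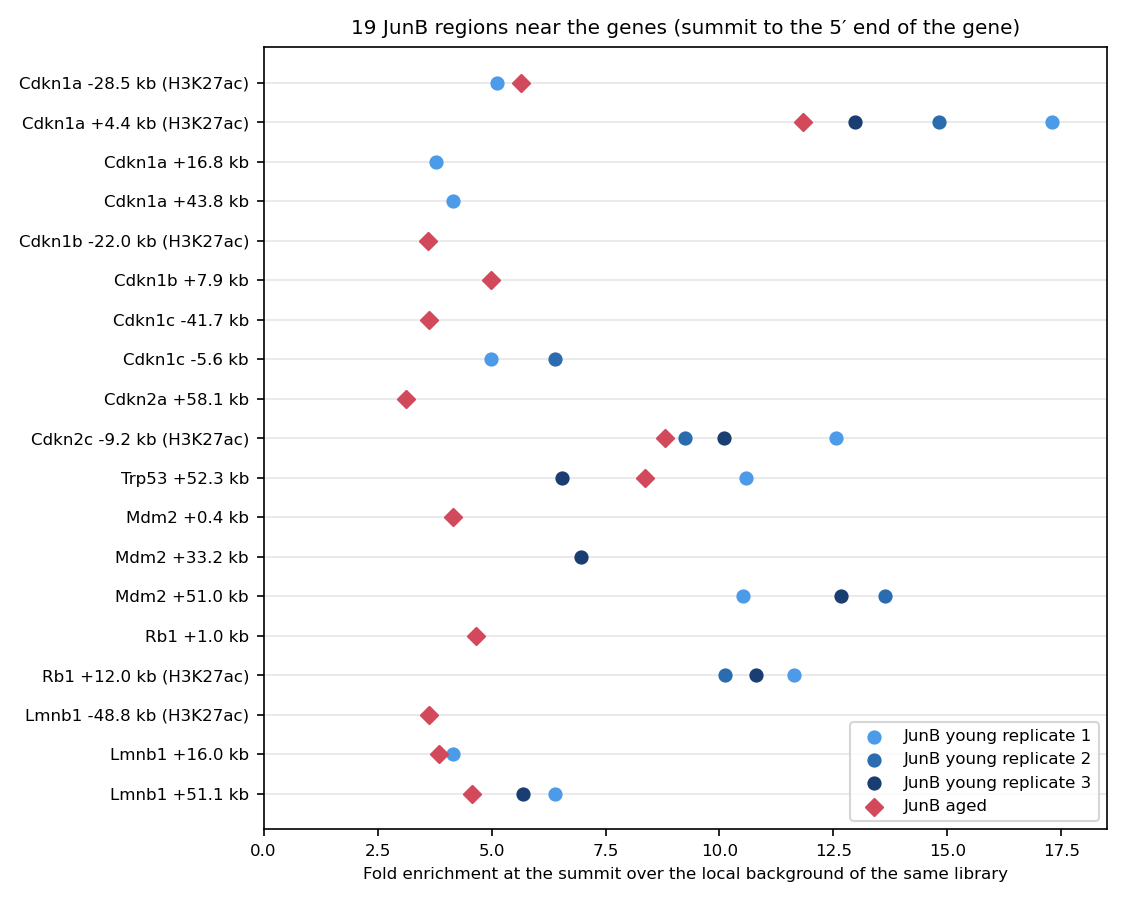
Fold enrichment at the summit over the local background of the same library for the 19 mJunB regions near the genes, with 1 point for each library that had a peak (blue circles, young replicates; red diamonds, aged). The regions named for H3K27ac overlapped an H3K27ac peak, and the points above 10 belong to the Cdkn1a intron and to regions near Cdkn2c, Trp53, Mdm2 and Rb1, while regions with a single red diamond stay at 5.0 or below.

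Over the 19 regions, 10 were found in 1 library, 3 in 2, 4 in 3 and 2 in 4. The 10 regions of 1 library compare with 65.8% of the 18879 mJunB regions on the autosomes, X and Y. The 2 regions in all 4 libraries (at Cdkn1a and Cdkn2c) compare with 13.1% of these. The 2 regions in all 3 young libraries but not the aged one (near Mdm2 and Rb1) compare with 2.06% of all regions, and the 7 found in the aged library alone with 45.0%. Of those 7, 6 had the lowest width of the aged list, 245 bp, which 20.3% of all aged peaks had. Libraries therefore shared 9 of the 19 regions, and no region of a single library exceeded a fold of 6.95. Both ages had a peak in 6 regions, and no share of all regions was computed for that count.

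Strength was also read within each list. The median peak near the genes was stronger than 70.9%, 68.2% and 66.3% of its young library and than 35.6% of the aged one. The corresponding median folds were 6.39, 10.1, 10.1 and 4.58. Of the 13 aged peaks, 8 were below the median −log10 p of that list. Held to the 2000 strongest peaks each, the young lists had peaks near 5, 4 and 4 of the genes and the aged list near 3 (Cdkn1a, Cdkn2c and Trp53). The lists differ in length and threshold, the part of which was not tested, so these positions describe each list and not a difference between ages.

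**Figure D4:**
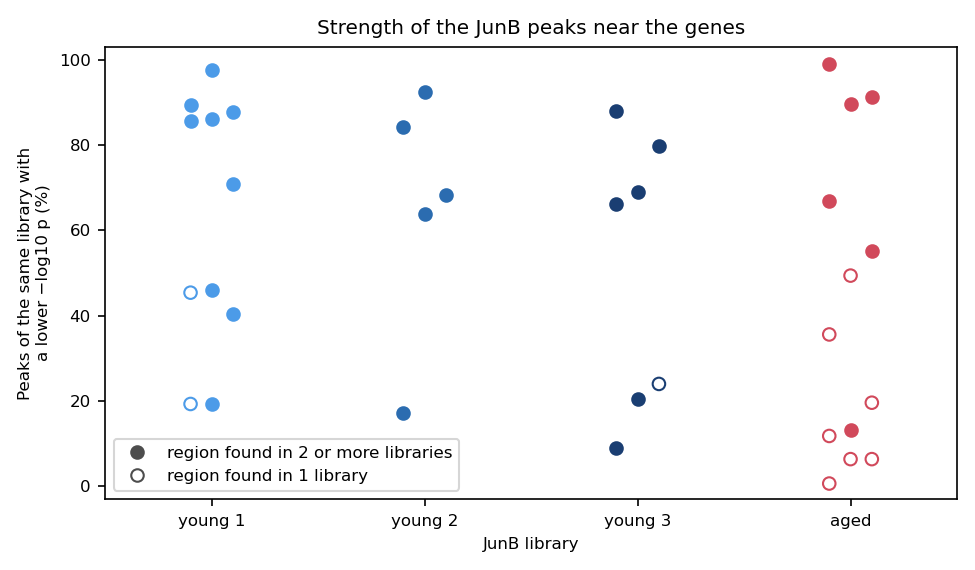
Strength of each mJunB peak near the genes as the share of peaks of the same library (%) with a lower −log10 p, by library; filled circles are peaks of regions found in 2 or more libraries and open circles those found in 1. In the aged library all 7 open circles are below 50, at 0.644 to 49.4, and the peak at the Cdkn1a intron is the top point in each library.

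H3K27ac peaks lay within 3 kb of a TSS of 8 of the 10 genes (all but Cdkn1c and Cdkn2a), beside 49.8% of all genes, and within 50 kb of 9, beside 76.6%. Of the 19 mJunB regions 6 overlapped an H3K27ac peak, where 42.6% of all mJunB regions did. These were the Cdkn1a intron, the Trp53cor1 intron, Gpr19 near Cdkn1b, Faf1 near Cdkn2c, the Rb1 intron and the upstream region of Lmnb1. An overlap of 1 bp was enough for this count, and at the Cdkn1a intron the mJunB summits lay outside the H3K27ac peak. Under a stricter overlap, set as a share of the shorter feature, 4 regions remained. Seen from the other side, 6 of the 38 H3K27ac peaks overlapped an mJunB region, and of the 12 H3K27ac promoter peaks 1 did, at Cdkn1a. The other H3K27ac promoter peaks overlapped no listed mJunB peak. The share over all 39865 H3K27ac peaks was not computed, so these counts are not read as a trait of the genes.

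A peak within 50 kb of a gene was often nearer to another. A TSS of one of the 10 genes was the nearest TSS for 5 of the 19 regions, and the nearest protein-coding one for 10. Of the 16 distal regions, 9 lay within 3 kb of a TSS of another gene and 7 lay more than 3 kb from every TSS. In all, 12 of 19 regions were within 3 kb of some TSS, against 36.9% of all mJunB regions. The 19 regions were chosen for lying within 50 kb of a TSS and all mJunB regions were not, so these shares are not alike.

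In sequence, the 19 regions had a median GC content of 52.5% and a median of 7.0 CpG dinucleotides, beside 48.8% and 4.0 over all mJunB regions, and a median width of 340 bp beside 342 bp. The AP-1 heptamer occurred in the 301 bp centred on the summit of the strongest peak in 5 of the 19 regions, where 17.2% of all regions had it, and anywhere in the region in 6, where 25.2% had it. It was found around the summit in 3 of the 9 regions of 2 or more libraries and in 2 of the 10 regions of 1 library. The octamer TGACGTCA, the cAMP response element, was in 0 of the 19 windows and in 1.06% of all. The GC box was in 5 of the 19 and in 17.0% of all. These are counts of letters on both strands and not of bound sites.

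Beyond the 10 genes, promoter peaks were counted in 3 lists of related genes, also chosen with earlier results of these data known. Of 17 further CDK inhibitor, pocket protein and G1 kinase genes, 5, 3 and 3 had an mJunB promoter peak in the young libraries, 7 had one in the aged library and 10 had an H3K27ac one. The shares of all genes, given above for the 10 genes, were 11.0%, 7.74% and 5.91%, then 23.9% and 49.8%. Cdkn2d (p19, the remaining INK4 inhibitor) had one in all 4 mJunB libraries, with folds of 8.78, 9.89 and 10.6 in the young libraries, against 9.43 in the aged one, as had the E2F factor genes E2f3 and E2f1, so that 3 of 17 did beside 4.36% of all genes. Ccne1 (cyclin E1) and E2f2 had one in the aged library alone, 2 of 17 beside 13.1% of all genes. Cdkn2d was thus the INK4 gene with mJunB at its own start, which Cdkn2a, Cdkn2b and Cdkn2c lacked.

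Of 24 regulators and targets of p53, 6, 5 and 1 had an mJunB promoter peak in the young lists (11.0%, 7.74% and 5.91% of all genes) and 11 in the aged list (23.9%), while 22 had an H3K27ac one (49.8%). The stress-response gene Sesn2 was the one of 24 with a peak in all 4 libraries (4.36% of all genes), as at Cdkn1a, with folds of 7.15, 6.49, 6.84 and 3.93. Fas (a death receptor), Ppm1d and Mdm4 (inhibitors of p53 signalling), Chek1 (a checkpoint kinase) and Btg2 (an antiproliferative factor) had one in the aged library alone, 5 of 24 beside 13.1% of all genes.

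Of 17 genes of the nuclear lamina and senescence chromatin, 5, 3 and 3 had an mJunB promoter peak in the young lists (11.0%, 7.74% and 5.91% of all genes), 8 in the aged list (23.9%) and 11 an H3K27ac one (49.8%). Lmna, the lamin A/C gene, had folds of 23.4, 24.4 and 19.8 in the young lists, against 14.5 in the aged list, unlike Lmnb1, which had no promoter peak. Tmpo (a lamina-associated protein) and Kdm6b (a demethylase of H3K27) also had one in all 4, which made 3 of 17 beside 4.36% of all genes. Ezh2 (the methyltransferase of H3K27), Hmga1, Hmgb1, Hmgb2 and H2afx had one in the aged library alone, 5 of 17 beside 13.1% of all genes.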

How the data were processed

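The peak lists of 5 CUT&RUN-seq libraries of mouse MuSCs were used, grouped by their labels. After trimming, the authors used Bowtie2 for alignment to mm10, removed redundant reads and called peaks with MACS2 at a cutoff on p, and deposited 1 list per library. Versions and a control library are not given in the sources used here. Per peak, the deposited lists give a fold enrichment (a ratio), a −log10 p and a −log10 q, each relative to its own library, and a score, which was not used. The authors' lists hold no reads, so depth is unknown, and shares carry no intervals.

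Peaks were assigned to TSSs of GENCODE M21 by their nearest edge (50 kb, split at 3 kb). mJunB peaks that overlapped or touched were merged, and an overlap was 1 bp or more. Motifs were sought on both strands of GRCm38, in 301 bp at the summit of the strongest peak. Python 3.11.15 with numpy 2.4.6, pandas 2.3.3 and matplotlib 3.10.9 was used. On simulated data, 6 of 6 checks gave equal results with bedtools 2.31.1 or the planted values, and all 100 planted genes among 500 were found.

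All 10 genes were named in each comparison. Of 3 related lists, at most 6 genes each with a promoter peak in all 4 mJunB libraries, or in the aged library alone, were named by their aged −log10 p. The members and lists were chosen with earlier results of these data known. No test was made, since there was 1 aged library. Alternatives covered the window, the split, the distance point, the TSS set, peak thresholds, overlap, H3K27ac strength, the merge gap and each library left out.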

Additional observations from a re-analysis of the deposited data

How the results depend on the processing

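The values reported were 19 mJunB regions, 3 genes with an mJunB promoter peak, 2 regions in all 4 libraries, 6 regions overlapping H3K27ac and 13 aged peaks. Over the alternatives, 12 of 16, 14 of 16, 13 of 16, 14 of 16 and 10 of 15 stayed within 1.5 times these, and the following did not. A window of 25 kb gave 11 regions and 7 aged peaks. A window of 100 kb gave 37 regions, 5 in all 4 libraries, 15 overlapping H3K27ac and 29 aged peaks. A −log10 q of at least 2, or a −log10 p of at least 5, left 8 aged peaks. The 2000 strongest peaks of each library gave 5 regions, 1 gene (Cdkn1a), 3 regions overlapping H3K27ac and 3 aged peaks, fewer peaks being read by construction.

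Leaving out 1 library at a time gave 12 to 19 regions, 1 to 3 genes, 2 to 4 regions in all remaining libraries, 4 to 6 overlapping H3K27ac and, for the young libraries, 13 aged peaks. Without the aged library, an alternative added after seeing the data, there were 12 regions, 1 gene (Cdkn1a) and 4 regions shared by the remaining libraries. Without young replicate 2, too, 4 regions were shared. The promoter call at Cdkn1a was lost at a split of 1 kb and with only the 5′ end of each gene as TSS, both of which left Mdm2 and Rb1, and a split of 5 kb added Lmnb1. The H3K27ac library is a single one and could not be left out. No paired analysis was possible because there was 1 aged library and the labels tie no young library to it. The results come from no test. Depth could not be judged from the lists, so a missing peak is a peak not listed and not a site shown to be free of mJunB.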
